A study of Mus musculus with 18 samples.

Results

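The genes described here are 10 that immature neurons use to build and extend their processes: Dcx, Stmn1, Stmn2, Tubb3, Tubb2b, Gap43, Map1b, Mapt, Dpysl3 and Marcks. The rule that selects them uses names and no measured value, but the list was chosen with earlier results of these data known. The counts set against all probe sets below are therefore descriptive. They are 10 of the 18193 genes that have a probe set with a single gene symbol on the array. All 28 probe sets that carry one of these symbols alone were taken, and each gene is described first by the probe set with the highest mean over the 18 arrays.

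A young neuron extends its axon and dendrites by polymerizing microtubules from tubulin dimers, and it steers them with a growth cone at the tip. Tubb3 and Tubb2b encode beta-tubulins of neurons. Dcx (doublecortin), Map1b and Mapt (tau) encode proteins that bind and stabilize microtubules, while Stmn1 and Stmn2 encode stathmins, which bind tubulin dimers and destabilize microtubules. Dpysl3 encodes a collapsin response mediator protein, of a family that relays guidance signals to the cytoskeleton. Gap43 and Marcks encode substrates of protein kinase C that lie under the membrane of the growth cone. In the mouse retina ganglion cells and the first amacrine, horizontal and cone cells are made before birth, rods, bipolar cells and Müller glia continue to be made after it, and the adult retina holds differentiated neurons and glia.

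Total RNA came from isolated whole retinas of mice that lack Plk3, a polo-like kinase of the stress response and cell cycle, and from their WT littermates, at birth (P0), at postnatal day 7 (P7) and in the adult, for which the labels give no exact age. The 6 groups held 3 arrays each, WT and Plk3-KO at each age. All mice carry the strain label C57Bl/6. The knockout is constitutive, and the line was partly of Black Swiss background before it was crossed to C57Bl/6 until it was free of a retinal degeneration allele. The labels do not say whether a replicate came from 1 animal or several, so p-values measure the spread between these samples only. The RNA was amplified and biotin-labelled and was hybridized to Affymetrix mouse expression arrays, and values are the deposited log2 signals. A difference of 1 is therefore a 2-fold change, and levels are compared between arrays within a probe set, never between probe sets. A group mean of 7 is the lower limit that the methods of the study set for expression.

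The median signal of an array lay between 6.3 and 7.2. Most rod markers were present at each age, with a mean over the list of 9.74 to 10.5 on the P0 arrays and 15.1 to 16.5 on the adult arrays. At P0 4 of the 5 rod genes had group means above 7, and Gnat1 did not (4.97 in WT and 5.60 in Plk3-KO). The single Plk3 probe set read higher in Plk3-KO than in WT retinas, by 1.58 ± 0.32 (SE) over the 3 ages (limma adjusted p = 0.363), and because it covers the 3′ end of the gene, outside the deleted part by the account of the study, a missing signal cannot be looked for and the probe set is no check that the targeted part is gone. Earlier analysis of these data found 4 arrays that stand apart: P7 WT 3, P7 Plk3-KO 2, adult WT 3 and adult Plk3-KO 3. Both P7 arrays had a median of 6.4, against 6.8 to 6.9 for the other P7 arrays, and both adult arrays had a median of 7.0 or more, against 6.3 to 6.5 for the other adult arrays. Adult WT 3 nevertheless correlated with another adult array at up to 0.92. The difference between 3′ and 5′ actin probe sets, a sign of RNA quality, was 1.0 to 1.3 at P0, 0.8 to 1.6 at P7 and 1.6 to 2.7 in the adult, and its highest value was on adult Plk3-KO 3. It moved with age, and its part in the age differences was not tested. Selected results are also given without these 4 arrays.

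Promoter sequence is shown for the neuronal beta-tubulin Tubb3, which fell with age, and the microtubule-binding protein Map1b, which has the largest genotype difference among the 9 members tested in the adult. These 2 members have a tabulated window that ends before the gene. The windows are the 250 bases before the annotated start in RefSeq (GRCm38.p6), chr8:123411303-123411552 on the plus strand for Tubb3 and chr13:99516603-99516852 on the minus strand for Map1b, written 5′ to 3′ along the gene. Capitals mark matches on either strand to 3 motifs. The E-box was searched as CANNTG. A GC box was taken as GGGCGG, and the TATA box as TATAAA. The matches printed do not overlap.
Tubb3: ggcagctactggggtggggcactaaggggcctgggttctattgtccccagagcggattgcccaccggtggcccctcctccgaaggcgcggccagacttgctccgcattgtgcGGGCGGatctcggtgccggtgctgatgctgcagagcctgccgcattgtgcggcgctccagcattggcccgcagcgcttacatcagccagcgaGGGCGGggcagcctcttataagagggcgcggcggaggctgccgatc
Map1b: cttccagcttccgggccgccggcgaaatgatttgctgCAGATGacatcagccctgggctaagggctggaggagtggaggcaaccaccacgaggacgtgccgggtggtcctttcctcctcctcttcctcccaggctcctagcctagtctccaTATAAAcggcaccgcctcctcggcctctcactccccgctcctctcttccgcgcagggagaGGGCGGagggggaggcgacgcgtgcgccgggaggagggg
The Tubb3 window held 2 GC boxes and neither other motif, and the Map1b window held 1 of each. Among 32851 windows of the same length, 32.74% held a GC box, 66.22% an E-box and 12.37% a TATA box. The GC content was 68.0% for Tubb3 and 66.4% for Map1b, against a median of 52.4% over all windows. These matches describe the letters of the windows and are not sites shown to be used.

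Most of these genes were lower in the adult than in the newborn retina. Over both genotypes, 8 of the 10 fell between P0 and adult (limma adjusted p under 0.05), against 36.6% of all probe sets tested that were called lower, and 0 rose, against 26.3% called higher. The median difference was -1.12 for the 10 members and -0.22 for all probe sets tested. Mapt and Map1b were the members that did not pass the test. When each array was centred on its median, the median of all probe sets moved to 0.10 and the share of lower among called probe sets from 58.1% to 43.9%. Dcx, Tubb2b, Tubb3, Gap43 and Marcks then still passed, whereas Stmn1 (-0.52), Stmn2 (-0.57) and Dpysl3 (-0.35) did not. In whole tissue, fewer cells of a type and less RNA per cell cannot be told apart.

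**Figure D1:**
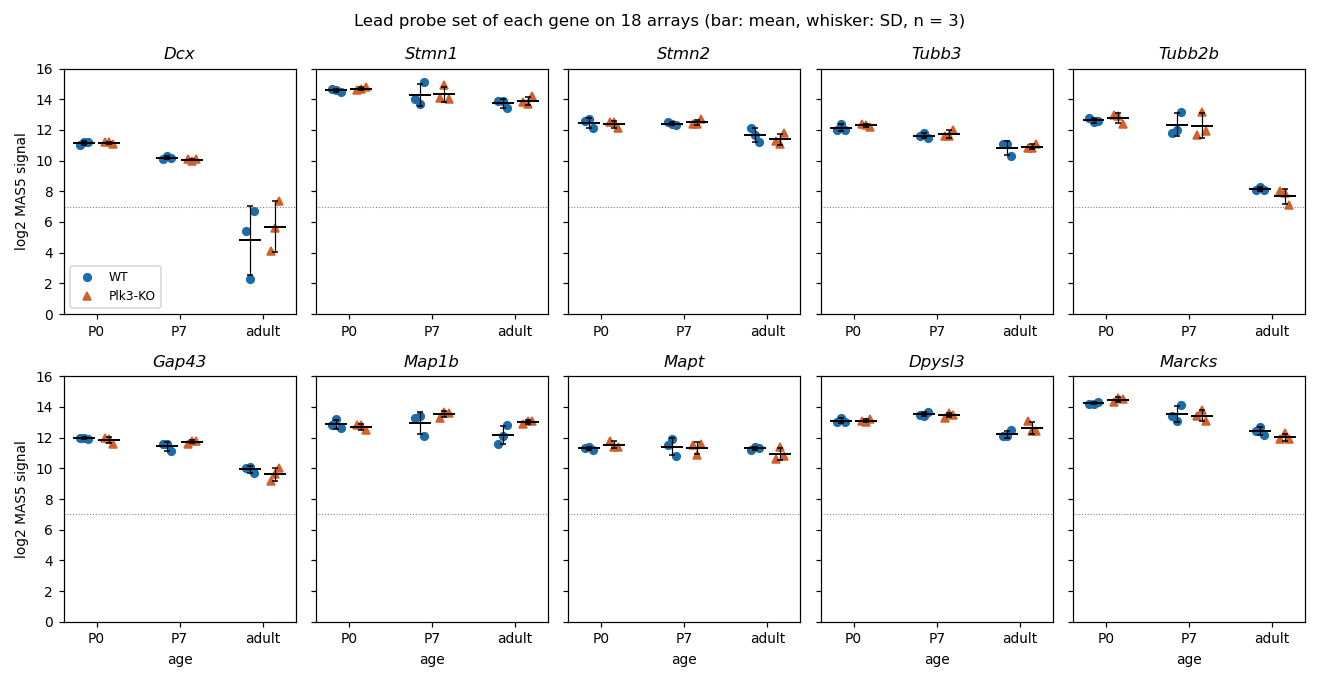
Log2 signal of the lead probe set of each member on each array at P0, P7 and adult, with blue circles for WT, orange triangles for Plk3-KO, bars and whiskers at the mean and SD of each group (n = 3) and a dotted line at 7. The adult arrays lie below the P0 and P7 arrays for Dcx, Tubb2b, Gap43, Tubb3 and Marcks, and the ages overlap for Map1b and Mapt.

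Dcx, the microtubule-binding protein of migrating and newly differentiating neurons, had log2 signals of 11.0, 11.2 and 11.2 in WT and 11.2, 11.2 and 11.1 in Plk3-KO retinas at P0. At P7 the values were 10.1, 10.3 and 10.2 in WT and 10.1, 10 and 10.1 in Plk3-KO. Adult WT retinas gave 5.4, 2.3 and 6.7, and adult Plk3-KO retinas 4.1, 5.6 and 7.4. The 3 ages did not overlap, and 5 of the 6 adult arrays lay below 7. From P0 to adult Dcx fell by 5.90 ± 0.58 (SE, limma adjusted p = 2.88e-07), a difference whose size is not firm because the adult signal is low and scatters (SD 2.26 in WT and 1.65 in Plk3-KO, n = 3). Without the 4 arrays that stand apart this difference was -6.80. The drop from P0 to P7 was 1.02 ± 0.58 (limma adjusted p = 0.185), although all 6 arrays at P7 lay below all 6 at P0 (exact permutation p = 0.005, two-sided, the smallest it can give). That SE pools the spread of all 6 groups, the adult scatter included, while the SD was 0.06 to 0.12 at P0 and P7. The methods' t-test, which uses only the groups compared, gave a Benjamini-Hochberg adjusted p of 0.0150 in WT and 0.00632 in Plk3-KO. A second probe set, 1418141_at, fell by 5.52 ± 0.74 from P0 to adult, and the other two never had a group mean above 7.

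The stathmins fell by less than Dcx. Stmn1, which sequesters tubulin and is abundant in dividing and immature cells, had lead signals of 14.7, 14.6 and 14.5 in WT and 14.6, 14.7 and 14.8 in Plk3-KO retinas at P0. Its P7 values were 14, 13.7 and 15.1 in WT and 14.1, 14.9 and 14 in Plk3-KO, and its adult values were 13.9, 13.9 and 13.4 in WT and 13.8, 13.7 and 14.2 in Plk3-KO. All adult arrays lay below all P0 arrays, while P7 spanned both, with its 2 highest values on P7 WT 3 and P7 Plk3-KO 2. Stmn1 fell by 0.83 ± 0.23 between P0 and adult (1.78-fold, limma adjusted p = 0.00464).

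The other Stmn1 probe set, 1448113_at, separated the ages completely. It read 12.3, 12.3 and 12.4 in WT and 12.6, 12.7 and 12.6 in Plk3-KO retinas at P0, then 11.0, 10.8 and 11.9 against 10.6, 11.9 and 9.9 at P7. In the adult the values were 9.6, 9.4 and 9.7 in WT and 8.1, 8.8 and 9.3 in Plk3-KO. No array of one age overlapped with another age. This probe set fell by 3.33 ± 0.28 (10.1-fold, limma adjusted p = 5.04e-08), so that the 2 probe sets of Stmn1 agree on the direction and differ in the size of the change.

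Stmn2, the stathmin of growing axons, was nearly level between P0 and P7 and lower in the adult. At P0 it read 12.6, 12.7 and 12.1 in WT and 12.5, 12.5 and 12.1 in Plk3-KO retinas, and at P7 12.5, 12.4 and 12.3 in WT and 12.4, 12.4 and 12.7 in Plk3-KO. Adult values were 12.1, 11.7 and 11.2 in WT and 11.3, 11.1 and 11.8 in Plk3-KO. The adult arrays lay below every P7 array, and adult WT 1 matched the 2 lowest P0 arrays. Between P7 and adult Stmn2 fell by 0.92 ± 0.17 (limma adjusted p = 0.000597), and between P0 and P7 it differed by 0.03 ± 0.17 (limma adjusted p = 0.895).

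Of the tubulins, Tubb2b, a beta-tubulin of newborn neurons, had a far larger drop than Tubb3. Tubb2b signals at P0 were 12.8, 12.5 and 12.6 in WT and 13, 12.9 and 12.4 in Plk3-KO retinas. At P7 they were 11.8, 12 and 13.2 in WT and 11.7, 13.2 and 11.9 in Plk3-KO, and in the adult 8.1, 8.3 and 8.1 in WT and 8.0, 7.9 and 7.1 in Plk3-KO. P7 overlapped with P0 only through the 13.2 of P7 WT 3 and P7 Plk3-KO 2, and the adult arrays lay far below both. Tubb2b fell by 4.78 ± 0.27 from P0 to adult (27.5-fold, limma adjusted p = 4.64e-10), of which 4.38 ± 0.27 fell between P7 and adult. A further probe set that carries the symbols Tubb2b and Tubb2a-ps2 and so is not counted among the 28 had group means of 10.3 and 10.2 at P0 and of 5.63 and 4.80 in the adult, WT first.

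Tubb3, the beta-tubulin widely used as a neuron marker, stepped down at each age. Its P0 values were 12, 12.4 and 12 in WT and 12.4, 12.3 and 12.2 in Plk3-KO retinas. At P7 it gave 11.6, 11.8 and 11.5 in WT and 11.6, 11.6 and 12 in Plk3-KO, and in the adult 11.1, 11.1 and 10.3 in WT and 10.8, 10.8 and 11.1 in Plk3-KO. P0 and P7 met at 12, and the adult arrays lay below all others. The drop was 0.53 ± 0.15 from P0 to P7 (limma adjusted p = 0.0101) and 0.82 ± 0.15 from P7 to adult (limma adjusted p = 0.000536), which together made 2.55-fold.

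Map1b and Mapt, unlike the microtubule-binding protein Dcx, did not pass from P0 to adult by their lead probe sets. Map1b, which is expressed early in axon growth, gave 12.8, 13.2 and 12.6 in WT and 12.8, 12.8 and 12.5 in Plk3-KO retinas at P0. At P7 the values were 13.3, 13.4 and 12.1 in WT and 13.3, 13.7 and 13.6 in Plk3-KO, and in the adult 11.6, 12.1 and 12.8 in WT and 12.9, 13.1 and 13.1 in Plk3-KO. All 3 ages overlapped, but the adult genotypes did not, since the 3 knockout values all exceeded the 3 WT values. Map1b fell by 0.63 ± 0.23 from P7 to adult (limma adjusted p = 0.0383) and differed by -0.18 ± 0.23 from P0 to adult (limma adjusted p = 0.491). Its probe set 1421851_at fell by 1.03 ± 0.40 from P0 to adult (limma adjusted p = 0.0327), and its remaining probe set never had a group mean above 7.

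Mapt, the axonal protein tau, did not pass in any of the 3 intervals by its lead probe set. Lead signals at P0 were 11.3, 11.4 and 11.2 in WT and 11.8, 11.4 and 11.4 in Plk3-KO retinas, and at P7 11.5, 11.9 and 10.8 in WT and 11.5, 10.9 and 11.6 in Plk3-KO. The adult values were 11.2, 11.4 and 11.3 in WT and 10.6, 11.4 and 10.8 in Plk3-KO. These ranges overlap at all ages, and the difference of -0.30 ± 0.19 from P0 to adult did not pass the test (limma adjusted p = 0.171). Probe sets 1424719_a_at and 1455028_at did pass it, with drops of 0.88 ± 0.20 and 0.47 ± 0.16, and 1417885_at did not, at -0.60 ± 0.37. The mean of the Mapt probe sets passed from P0 to adult (-0.56, limma adjusted p = 0.0253) and from P7 to adult (-0.59, limma adjusted p = 0.0306).

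Dpysl3, the collapsin response mediator, read highest at P7 by its lead probe set. It read 13, 13.3 and 13 in WT and 13.1, 13 and 13.2 in Plk3-KO retinas at P0. The P7 values were 13.5, 13.4 and 13.7 in WT and 13.3, 13.6 and 13.5 in Plk3-KO, and the adult values 12.1, 12.1 and 12.5 in WT and 13.1, 12.4 and 12.4 in Plk3-KO. P7 reached or exceeded the highest P0 array on all 6 arrays, and adult Plk3-KO 1 was the only adult array within the P0 range. The lead probe set rose by 0.40 ± 0.14 from P0 to P7 (limma adjusted p = 0.0382) and then fell by 1.07 ± 0.14 to the adult (limma adjusted p = 3.61e-05). Both other probe sets fell between P7 and adult and did not pass the test between P0 and P7, where they differed by 0.13 ± 0.22 and -0.05 ± 0.21. The rise of the lead probe set did not pass under quantile normalization (0.27), under median centring (0.63) or without the filter on low values. The mean of the Dpysl3 probe sets (0.16) did not pass either.

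The growth cone substrates both declined. Gap43, a marker of axon growth and regeneration, had signals of 12, 12 and 11.9 in WT and 12, 11.9 and 11.6 in Plk3-KO retinas at P0. At P7 they were 11.6, 11.6 and 11.1 in WT and 11.6, 11.8 and 11.8 in Plk3-KO, and in the adult 10, 10.1 and 9.7 in WT and 9.2, 9.6 and 10 in Plk3-KO. P0 and P7 overlapped, and the adult arrays lay below both. From P0 to adult Gap43 fell by 2.13 ± 0.14 (4.39-fold, limma adjusted p = 3.27e-09), most of it after P7 (1.82 ± 0.14).

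Marcks, which binds actin and membrane lipids, fell in both intervals. Its P0 signals were 14.2, 14.2 and 14.3 in WT and 14.3, 14.6 and 14.5 in Plk3-KO retinas. At P7 the arrays gave 13.4, 13.1 and 14.1 in WT and 13.4, 13.8 and 13.1 in Plk3-KO, and in the adult 12.4, 12.7 and 12.2 in WT and 11.9, 12.3 and 11.9 in Plk3-KO. The 3 ages did not overlap. The drop was 0.87 ± 0.17 to P7 (limma adjusted p = 0.00101) and 2.12 ± 0.17 to the adult (4.34-fold, limma adjusted p = 3.84e-08). Of the 6 other Marcks probe sets, 5 fell by 1.82 to 4.10 from P0 to adult, and 1437034_x_at differed by 0.48 ± 0.39 (limma adjusted p = 0.282).

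Over all tested probe sets of the members, 21 of 25 fell between P0 and adult, against 36.6% of all probe sets. They included 13 of the 15 that were not the lead of their gene. Probe sets of the same gene are not independent, and Marcks has the most. Between P7 and adult 21 of 25 fell, against 19.7%. Between P0 and P7 8 fell, against 19.0%, and 1 rose, against 17.4%. Marcks 1437034_x_at was the one probe set that lay above 0 both from P0 to adult and from P7 to adult.

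**Figure D2:**
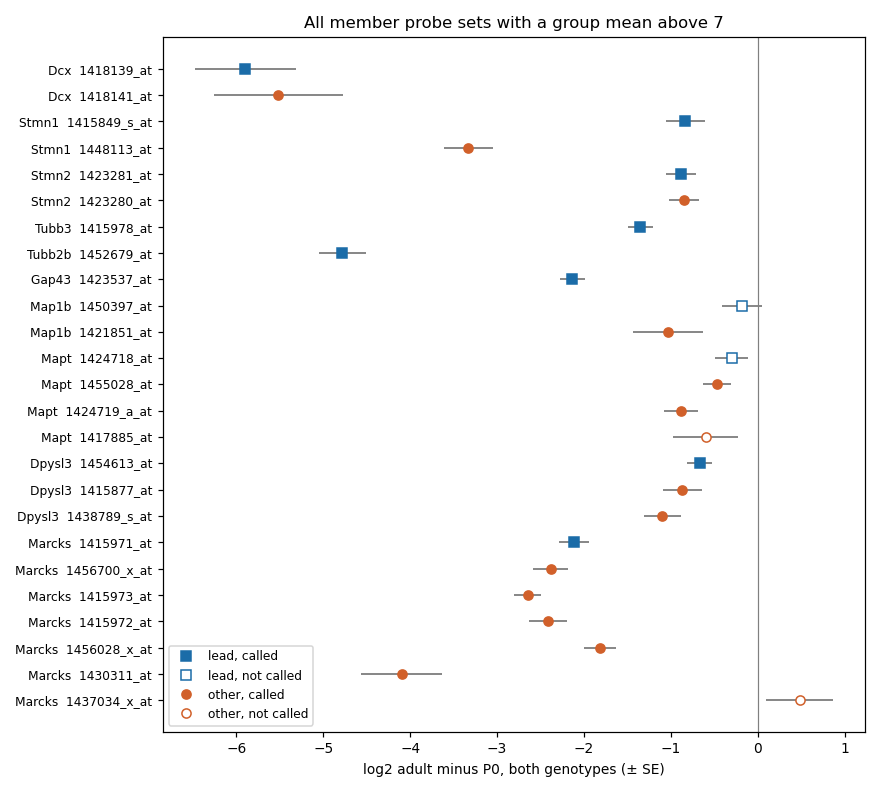
Adult minus P0 difference (log2, both genotypes, x axis) of each member probe set with a mean above 7 in a group, 1 row per probe set, with squares for the lead probe set of a gene, circles for the others, filled symbols where the limma adjusted p is under 0.05 and bars of 1 SE. Probe sets of a gene lie apart for Stmn1 (-0.83 and -3.33), Marcks (-4.10 to 0.48) and Map1b (-0.18 and -1.03).

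The timing differed between members. From P0 to P7, 2 of the 10 passed the limma test as lower (Tubb3 and Marcks), against 19.0% of all probe sets. Another 1 passed as higher (Dpysl3), against 17.4%. Under median centring none of these 3 passed and Map1b did (0.68), with the median of all probe sets moving from -0.12 to 0.12 and the share of lower among called probe sets from 52.2% to 34%. Dcx did not pass limma from P0 to P7, although all its P7 arrays lay below all its P0 arrays. From P7 to adult 8 fell, against 19.7%, with a median of -0.99 for the members and -0.07 for all probe sets. Stmn1 (-0.48 ± 0.23, limma adjusted p = 0.103) and Mapt (-0.25 ± 0.19, limma adjusted p = 0.307) did not pass in this interval. The age comparisons share arrays, so their counts are not independent. Exact permutation p over both genotypes was 0.005, the smallest it can give, for 6 of the 10 members from P0 to adult, and was 0.01 for Stmn2, 0.015 for Dpysl3, 0.21 for Mapt and 0.525 for Map1b. It was run on members only, so no share of all probe sets stands beside that count.

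**Figure D3:**
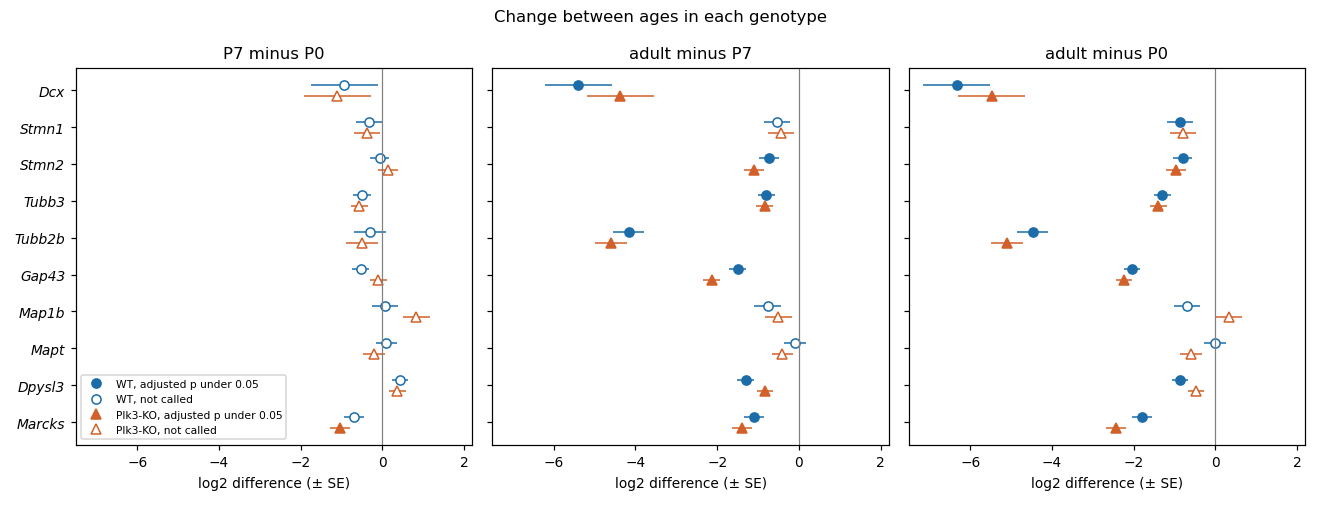
Differences P7 minus P0, adult minus P7 and adult minus P0 (log2, x axes) of the lead probe set of each member, with circles for WT, triangles for Plk3-KO (3 arrays per group), filled symbols where the limma adjusted p is under 0.05 and bars of 1 SE. Dcx and Tubb2b lie lowest from P0 to adult in both genotypes (Tubb2b at -4.47 in WT and -5.1 in Plk3-KO), and between P0 and P7 Marcks in Plk3-KO (-1.03) is the only filled symbol.

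Without the 4 arrays that stand apart, 5 members passed between P0 and P7: Stmn1 (-0.70), Tubb3 (-0.47), Tubb2b (-0.85) and Marcks (-1.10) fell and Map1b (0.62) rose, while Dpysl3 was lost (limma adjusted p = 0.0504). The reduced fit called 22.8% of all probe sets lower and 23.6% higher in this interval. Map1b (-0.36) and Mapt joined the members that fell to the adult, Map1b from P0 and Mapt (-0.47) from P7. Leaving out P7 WT 3 alone was enough for Stmn1 (-0.56) and Map1b (0.66) to pass between P0 and P7. The rise of Dpysl3 to P7 was lost in 8 of the 12 fits that left out 1 array, as was the drop of Map1b from P7 to adult.

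The age change was also measured in each genotype. From P0 to adult 8 members fell in WT, against 26.9% of all probe sets, and 6 in Plk3-KO, against 25.2%, since Stmn1 (-0.80, limma adjusted p = 0.0516) and Dpysl3 (-0.47, limma adjusted p = 0.0704) did not pass in Plk3-KO. Values in WT and Plk3-KO were -4.47 and -5.1 for Tubb2b, -2.03 and -2.23 for Gap43, and -1.80 and -2.43 for Marcks. From P7 to adult 7 fell in WT, against 9.75%, and 7 in Plk3-KO, against 10%. From P0 to P7 0 passed the limma test in WT, against 9.60% called lower, with 4 at an unadjusted p under 0.05. The methods' t-test, at its unadjusted threshold, called 4 of 10 in WT (31.5% of all probe sets) and 5 of 10 in Plk3-KO (32.5%), and after Benjamini-Hochberg adjustment 1 (Dcx) and 2. By limma Marcks alone fell in Plk3-KO (-1.03 ± 0.25), against 10.5%. Stmn1 in WT from P0 to adult (limma adjusted p = 0.0351) was lost when any 1 of the 6 arrays was left out. A member that passed in only one genotype is not shown to differ between them, and for the change from P0 to adult the limma test of that difference called 0 members and 0% of all probe sets.

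No member passed between Plk3-KO and WT at P0, at P7, in the adult or over the 3 ages, and neither did any of all probe sets tested (0% in each comparison). At an unadjusted limma p under 0.05 there were 0 of 10 members at P0, 0 of 10 at P7, and 1 of 9 in the adult, where Dcx was too low to test. The share of all probe sets at that level was 0.376%, 0.575% and 4.8%. Over the 3 ages and for the difference of the age change it was 1 of 10 members each, against 1.58% and 1.85%. At P0 and P7 the shares lie far below the level of 0.05 itself, so the limma test was conservative there. The fit pools the spread of all arrays and gives a member the same SE at each age. Finding 0 members at P0 and P7 therefore does not show that the genotypes are equal. The methods' t-test also called 0 members at each age at its unadjusted threshold, against 2.23%, 1.17% and 3.14% of all probe sets, and 0 after adjustment. The 95% intervals of the difference over the 3 ages ran from -0.15 to 0.37 for Tubb3, from -0.30 to 0.19 for Gap43 and from -0.61 to 0.32 for Tubb2b. In the adult alone they were wider, from -0.38 to 0.51 for Tubb3, -0.76 to 0.10 for Gap43 and -1.31 to 0.31 for Tubb2b. With 3 arrays against 3, an exact permutation test cannot give a p below 0.1.

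Map1b was the member at that level in the adult. Its lead probe set was higher in Plk3-KO by 0.87 ± 0.32 (95% interval 0.18 to 1.55, limma p = 0.016, adjusted p = 0.978), and the exact permutation p was 0.1, the smallest it can give. Over the 3 ages the difference was 0.43 (95% interval 0.04 to 0.83), with an exact permutation p of 0.0823. The age change differed between the genotypes by 1.03 ± 0.46 (limma adjusted p = 1.00). Without the 4 arrays that stand apart the adult difference was 1.15, with a limma adjusted p of 0.0188, and 1 member was then called. That fit drops 1 adult array of each genotype, and the WT array dropped had the highest adult WT value of Map1b. In that reduced fit 1.57% of all probe sets were called higher and 0.0988% lower, so the call is not one that Map1b alone gained. The Map1b probe set 1421851_at had the opposite sign in the adult, at -0.17 ± 0.56, and differed by 0.17 over the 3 ages.

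Arrays of the genotypes did not overlap for 1 of 25 member probe sets at P0, against 3.49% of all probe sets, for 0 of 25 at P7, against 1.92%, and for 3 of 22 in the adult, against 5.48%. At P0 this was Stmn1 1448113_at, higher in Plk3-KO. In the adult these were Map1b, higher in Plk3-KO, and Tubb2b and Stmn1 1448113_at, both lower. None of these passed the test over all probe sets. The lowest adult Tubb2b value, 7.1, was on adult Plk3-KO 3. The adult Tubb2b difference of -0.50 became -0.25 without the 4 arrays that stand apart. Stmn1 lies on chromosome 4, as Plk3 does, and the other 9 members lie elsewhere.

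**Figure D4:**
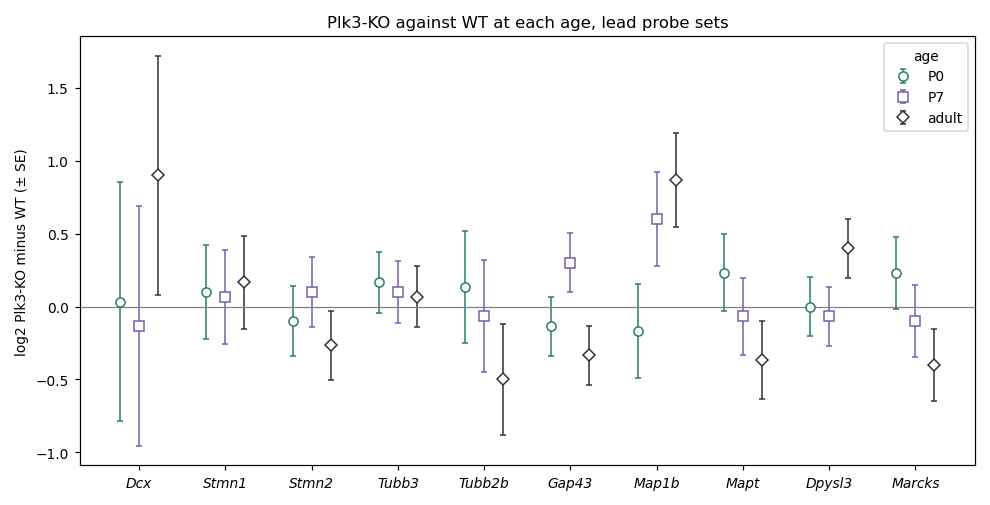
Plk3-KO minus WT difference (log2, y axis, 3 arrays per group) of the lead probe set of each member at P0 (circles), P7 (squares) and adult (diamonds), with bars of 1 SE. Most lie within 0.5 of 0, while adult Map1b lies at 0.87 and adult Dcx, too low to test, at 0.90. No member passed the test.

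Other genes of the same pathways were taken from fixed lists, of which 41 were on the array and 40 were tested from P0 to adult. Of these 23 fell, against 36.6% of all probe sets, 8 rose, against 26.3%, and 9 did not pass. The median was -0.65, against -0.22 for all probe sets. The 6 genes listed as transcription and RNA-binding factors of immature neurons all fell (median -2.41), among them the transcription factor Sox4 (-3.92). That list also holds Nnat (-4.52), which is neither kind of factor. Sox11, named after its value was seen, had the largest drop of this list (-5.73), with adult group means below 7. Of 7 growth cone and axon membrane proteins 5 fell and 2 rose (median -0.75), among them Marcksl1, a relative of Marcks (-2.75), and Basp1 (-0.75). Of 4 collapsin response mediators 3 fell, among them Dpysl4 (-0.98), and Dpysl2 rose (0.37), a call that neither quantile normalization (0.02) nor median centring (0.68) kept. Under median centring the counts were 6 lower for the factor list, 3 lower and 2 higher for the growth cone proteins without Basp1, and 3 lower for the mediators.

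The remaining groups were mixed, and their counts stand beside 36.6% lower and 26.3% higher over all probe sets. Of 7 tubulins 4 fell and 0 rose (median -0.48), with Tubb5 at -0.67, while Tuba1a, at 0.17, did not pass. Among 8 microtubule-associated proteins and stathmins 2 fell and 2 rose (median 0.28), with the dendritic protein Map2 up by 1.03 and Stmn3, at 0.63, not past the test. Among 8 kinases and phosphatases that act on these proteins 3 fell and 3 rose (median -0.38), with Gsk3b at -0.63 and Ppp3ca, at -0.37, not past the test. Between P0 and P7 11 of the 40 fell and 9 rose, against 19.0% lower and 17.4% higher over all probe sets, and between P7 and adult 21 fell and 4 rose, against 19.7% and 17.8%. Median centring, tried on these lists after their values were seen, left 1 tubulin lower and 1 higher, with Tubb5 at -0.35 not past the test. It left 2 microtubule-associated proteins and stathmins lower and 4 higher, and 1 kinase or phosphatase lower and 3 higher, with Gsk3b at -0.32 not past the test. Tuba1a turned to -0.51 and passed under quantile normalization. None of the pathway genes passed between the genotypes.

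**Figure D5:**
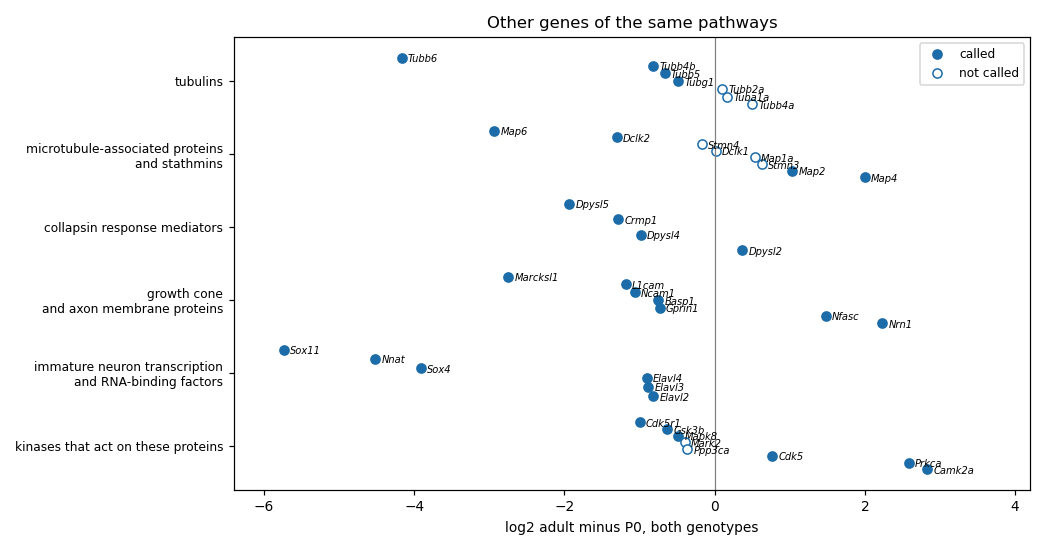
Adult minus P0 difference (log2, both genotypes) of the pathway genes by group, with 1 point per gene, filled where the limma adjusted p is under 0.05. The genes on the list of immature neuron factors, Nnat included, all lie below 0 (median -2.41), whereas the microtubule-associated proteins and stathmins lie on both sides (median 0.28).

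Markers of retinal cell types moved over the same ages, in the same direction under both other scalings for the progenitor and rod lists. The 6 progenitor and cell cycle genes all fell from P0 to adult (median -7.04), with array means of 12.6 to 12.9 at P0 and 4.73 to 6.5 in the adult, and all 5 rod genes rose (median 4.38). Ganglion cell genes did not move in one direction, with 2 lower and 3 higher of 6 and array means of 11.2 to 11.6 at P0 and 11.3 to 11.9 in the adult. Amacrine genes were lower in 1 and higher in 3 of 6, and bipolar, Müller and pigment epithelium genes were higher in 2 of 3, 3 of 4 and 3 of 3, with the remaining Müller gene, Slc1a3, lower (-1.18). Lens genes ranged over arrays from 5 to 14.7 at P0, 3.70 to 6.57 at P7 and 7.27 to 14.1 in the adult, with 0 of 3 called from P0 to adult, and the mean of the red blood cell genes did not exceed 6.40 on any array. The part of these cell types in the changes of the 10 members was not tested.

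The genes whose signal over the 18 arrays was most like the mean profile of the 10 members were Prdm1 (Pearson r = 0.982), Sox4 (0.981), Tspan6 (0.978), Fabp7 (0.976) and Zfp711 (0.976), among 21423 probe sets of other genes. Each member correlated with the mean profile to a different degree, from 0.97 for Gap43 and Tubb2b, 0.96 for Dcx and 0.90 for Marcks and Tubb3 to 0.38 for Mapt and 0.35 for Map1b. Each member is itself part of that mean, in which members with a wide range, such as Dcx and Tubb2b, weigh most. The order of the members is therefore partly set in advance. All these points share their arrays and 3 ages, and the values describe likeness across arrays only.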

How the data were processed

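Each value is a log2 MAS5 signal per probe set, made by the authors with the Bioconductor affy package and deposited with 1 decimal for 18 arrays; the MAS5 version and the genome build of the probe annotation are not given in the sources used here. No normalization was added. The 64 control probe sets were left out of 45101, and 34945 of the others carry 1 symbol, 932 several and 9160 none. Arrays were grouped by their labels. With limma 3.58.1 in R 4.3.3, 6 group means were fitted to all 18 arrays (12 residual and 4.07 prior degrees of freedom, variances moderated along the mean). Benjamini-Hochberg adjustment ran within each comparison over probe sets with a mean above 7 in a group compared, at a threshold of 0.05. The fit was tested on simulated data. Exact two-sided permutation tests were run on single values, for the lead probe sets of the 10 members and for Stmn1 1448113_at. They covered every comparison except the difference of the age change between genotypes. The number of arrays limits the precision.

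The members and gene lists were chosen with earlier results of these data known. Named genes are the 10 members, the 2 genes of highest mean in each pathway group, any pathway gene called between genotypes and the 5 most alike genes by correlation. The alternatives tried were other scalings, filters and tests (the methods' two-tailed test is unadjusted, and Benjamini-Hochberg adjustment was added here), the replicate block, leaving out arrays, and the mean of the probe sets of a gene. Promoter windows were in the RefSeq table for 3 of the 10 members, and 2 windows that overlap their gene were left out.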

Additional observations from a re-analysis of the deposited data

Results flagged for a closer look

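One result stood out because the genotypes differed in opposite directions at 2 ages. The Stmn1 probe set 1448113_at read higher on each Plk3-KO array than on each WT array at P0, by 0.30, and lower on each in the adult, by -0.83. The age change from P0 to adult differed between the genotypes by -1.13 ± 0.56 (SE, limma adjusted p = 1.00), so the test of the difference did not pass. The lead probe set of Stmn1 gave 0.07 ± 0.45 for the same difference.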

How the results depend on the processing

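No called member changed direction under any alternative. Of 48 member calls over 14 comparisons, 41 were kept whichever array was left out, 7 were lost at least once and 9 were gained. Median centring of each array moved the median of all probe sets from -0.22 to 0.10 between P0 and adult and from -0.12 to 0.12 between P0 and P7. Under it the members called from P0 to adult went from 8 to 5 over both genotypes, losing Stmn1 (-0.52), Stmn2 (-0.57) and Dpysl3 (-0.35), and to 5 in WT. From P0 to P7 3 went to 1 over both genotypes, and from P7 to adult 7 went to 4 in WT and 3 in Plk3-KO. Fewer of all probe sets were called lower too. Their number from P0 to adult went from 9056 to 6072 of 24775 over both genotypes. In WT it went from 6492 to 4013 of 24175. From P7 to adult it went from 2169 to 1069 of 22251 in WT and from 2230 to 1141 of 22271 in Plk3-KO. From P0 to P7 over both genotypes it went from 4536 to 2341 of 23878, with 4155 and 4552 called higher. The share of lower among all called probe sets went from 58.1% to 43.9% between P0 and adult and from 52.2% to 34% between P0 and P7. From P0 to P7 the main fit gave 0 in WT and 1 in Plk3-KO, and quantile normalization gave 3 in each, all lower. Quantile normalization called 2248 of 23411 probe sets lower in WT and 2354 of 23207 in Plk3-KO. The methods' t-test gave 1 and 2 after Benjamini-Hochberg adjustment. Unadjusted it gave 4 and 5, against 31.5% and 32.5% of all probe sets. The mean of a gene's probe sets gave 1 and 2, and a minimum mean of 8 gave 1 in WT. No share of all probe sets is given for these settings, so their counts describe the members only. From P7 to adult the methods' t-test gave 2 in each genotype after that adjustment. At its own unadjusted threshold it gave 6 in WT, against 24.7% of all probe sets, and 8 in Plk3-KO, against 23.5%. Without the 4 arrays that stand apart there were 5 over both genotypes from P0 to P7, against 22.8% of all probe sets called lower and 23.6% higher. In that interval there were 3 in WT, against 14.6% and 16.9%, and 5 in Plk3-KO, against 14.3% and 16%. Between the adult genotypes 1 was called, against 0.0988% lower and 1.57% higher.

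With 1 array left out, the members called ranged over both genotypes from 2 to 4 (P0 to P7), 7 to 8 (P7 to adult) and 8 to 8 (P0 to adult). They ranged in WT from 0 to 1, 5 to 7 and 6 to 7, in Plk3-KO from 1 to 1, 6 to 7 and 6 to 7, and between genotypes from 0 to 0. Arrays of equal replicate number did not deviate together throughout (r from -0.61 to 0.54), so the numbers were not taken as pairs. With the replicate block 2, 7 and 8 members passed over both genotypes, 0, 7 and 7 in WT and 1, 7 and 6 in Plk3-KO, in the same order of intervals, and 0 between genotypes. The counts with 1 array left out and with the replicate block have no share of all probe sets beside them and describe the members only.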
